A study of Homo sapiens with 4 samples.

Results

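The chromatin around 8 genes of fat and glucose metabolism was examined for sites bound by the transcription factor CEBPB in NCM460, a cultured human colon epithelial cell line. The genes were PPARG, FABP4, LPL, LPIN1, PPARGC1A, PCK1, INSR and IGFBP1, and were listed by name, with earlier results of these data known. A binding site belonged to a gene's locus when it lay within 100 kb of the transcription start site (TSS), which was known to 1 kb on the hg19 build. The series held 2 ChIP samples made with an antibody to CEBPB, described as independent experiments, and 2 input samples of the same cells, with no treatment named in the labels. Peaks were called in each ChIP sample against input, and a further table listed regions that both replicates supported at an irreproducible discovery rate (IDR) of at most 0.05, called reproducible regions here. Of 25602 reproducible regions on chromosomes 1 to 22 and X, 32 lay at the 8 loci. Of the peak summits, 89 of 80530 in replicate 1 and 113 of 104307 in replicate 2 lay there.

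The C/EBP family takes its name from enhancer binding, and its members are best known in fat and liver. In adipogenesis, CEBPB is induced early and acts ahead of PPARG and CEBPA, which then switch on genes of lipid uptake and storage such as FABP4 and LPL. In the fasting liver, C/EBP factors act with cyclic AMP signals, glucocorticoids and the coactivator encoded by PPARGC1A on genes such as PCK1 and IGFBP1, and insulin opposes that programme through its receptor INSR. RNA was not measured in this series, so whether any of the 8 genes is active in NCM460 is not known from it, and a site near a gene is not assigned to it here.

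Promoter sequences, 250 bases before to 50 after each start, were taken from RefSeq on GRCh38.p14, which held 12 promoters for 4 of the 8 genes (PPARG, PPARGC1A, LPIN1 and INSR). They were searched on both strands for the palindromic C/EBP word TTGCGCAA, its relaxed form TTGCNNAA, which includes the first, the C/EBP and ATF composite TGATGCAA and the cyclic AMP response element TGACGTCA. The 12 promoters held the relaxed word in 2 cases and none of the other words. Among all 35116 promoters of the same length, 10.5% held the relaxed word, 0.151% the palindrome, 0.866% the composite and 1.85% the cyclic AMP element. The matching promoters are shown 5′ to 3′ up to the start, with the word in capitals, because they belong to the genes of a nuclear receptor and a coactivator that sit near the top of the fat and glucose programmes. The first is the last of 6 starts listed for PPARG (plus strand, word at -80 from the start), and the other is the last of 2 listed for PPARGC1A (minus strand, word at -241, matched on the opposite strand). The 2 PPARGC1A starts lie 591.8 kb apart on GRCh38, so they cannot both lie within 100 kb of the TSS of that locus. Which of them that TSS stands for was not determined.
PPARG start 6: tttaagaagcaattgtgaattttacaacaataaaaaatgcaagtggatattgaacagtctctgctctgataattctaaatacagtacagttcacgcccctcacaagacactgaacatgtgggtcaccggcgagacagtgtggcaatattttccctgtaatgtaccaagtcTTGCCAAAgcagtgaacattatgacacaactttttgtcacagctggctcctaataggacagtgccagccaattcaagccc
PPARGC1A start 2: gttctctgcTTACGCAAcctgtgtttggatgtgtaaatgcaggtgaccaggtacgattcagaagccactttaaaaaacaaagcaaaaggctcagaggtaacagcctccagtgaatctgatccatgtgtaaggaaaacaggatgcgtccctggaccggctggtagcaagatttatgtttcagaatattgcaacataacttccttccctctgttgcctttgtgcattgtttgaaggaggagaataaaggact
A match is a description of these letters and not a binding site. Of 24 further genes of the same programmes, 19 were in the table with 26 promoters, and the relaxed word stood in 2 of them, those of LEP, which encodes the fat hormone leptin, and PLIN1, which encodes a coat protein of lipid droplets. The LEP promoter held the full palindrome.

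Values are given in a pair of units. The fold is the authors' own value for each summit, and it is used to describe and rank sites inside a list. It was read as the scaled ChIP pileup plus 1 over the local input background plus 1. At a low background the fold is therefore well below the plain ratio of pileup to background. Fragments are the extended ChIP reads stacked at the summit, recovered as whole numbers from the deposited fold and p-value, and the background is the expected number on the scaled pileup. Over all summits of a list, the median was 24 fragments in replicate 1 and 28 in replicate 2, and the median background was 2.14 and 2.20. Read totals of the libraries are not held in the lists, and intervals on fragments cover counting error only. Distances run from the TSS to the midpoint of a region, or to the summit where a summit is named, and follow the direction of transcription. Coordinates are on hg19.

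All 8 loci held at least 1 reproducible region. Fixed windows of 200 kb, laid end to end without regard to genes and clear of centromeric, variable and stalk bands, served as the background, and 63.5% of 14036 such windows held one. The loci differed widely: PPARG had 10 regions, LPIN1 6, INSR 5, FABP4 and LPL 3 each, PPARGC1A and IGFBP1 2 each, and PCK1 1. The median window held 1 region, with quartiles of 0 and 3. As many regions as at PPARG were held by 0.62% of windows, as many as at LPIN1 by 6.83% and as many as at INSR by 11.5%. For the other 5 loci the share of windows with at least as many ran from 28.9% at FABP4 and LPL to 63.5% at PCK1, so counts as high as theirs were common in the genome.

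**Figure D1:**
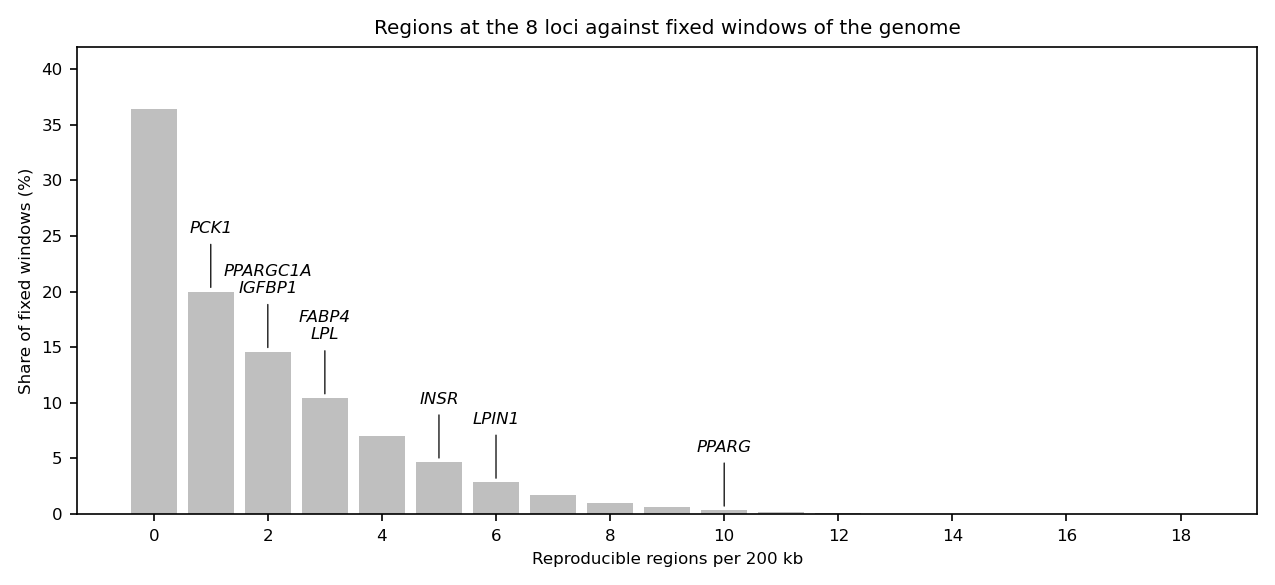
Number of reproducible CEBPB regions per 200 kb (horizontal axis) against the share of 14036 fixed windows of the genome in percent (grey bars, vertical axis), with the 8 loci named above the bar of their own count. PPARG stands far to the right with 10 regions, and PCK1, with 1, falls in the commonest class of windows that hold any.

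By fold, the strength of the regions at the 8 loci was close to that of all regions. Their mean fold over both replicates had a median of 16.6, against 15.8 for all 25602, and 17 of the 32 lay above that overall median. By fold, 3 of the 32 lay in the top 10% of all regions and none in the top 1%; by fragments, 6 lay in the top 10%. By fragments their medians were higher, 83 in replicate 1 and 94 in replicate 2, against 58 and 76 for all regions. Still, 18 of the 32 lay above the overall median by fragments. At PPARG every region but the one 1.0 kb upstream did, whereas most regions of the other loci lay below it. The higher medians therefore rest largely on PPARG. PPARG alone held 1264 of the 2886 summed fragments in replicate 1 and 1476 of the 3521 in replicate 2. Regions lay evenly about the start sites, with 16 upstream and 16 downstream. Within 5 kb of the TSS there were 5 regions, at PPARG, LPIN1, INSR and LPL, and within 10 kb there were 9, with IGFBP1 and PPARGC1A added. No reproducible region lay that near the TSS of PCK1 or FABP4.

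**Figure D2:**
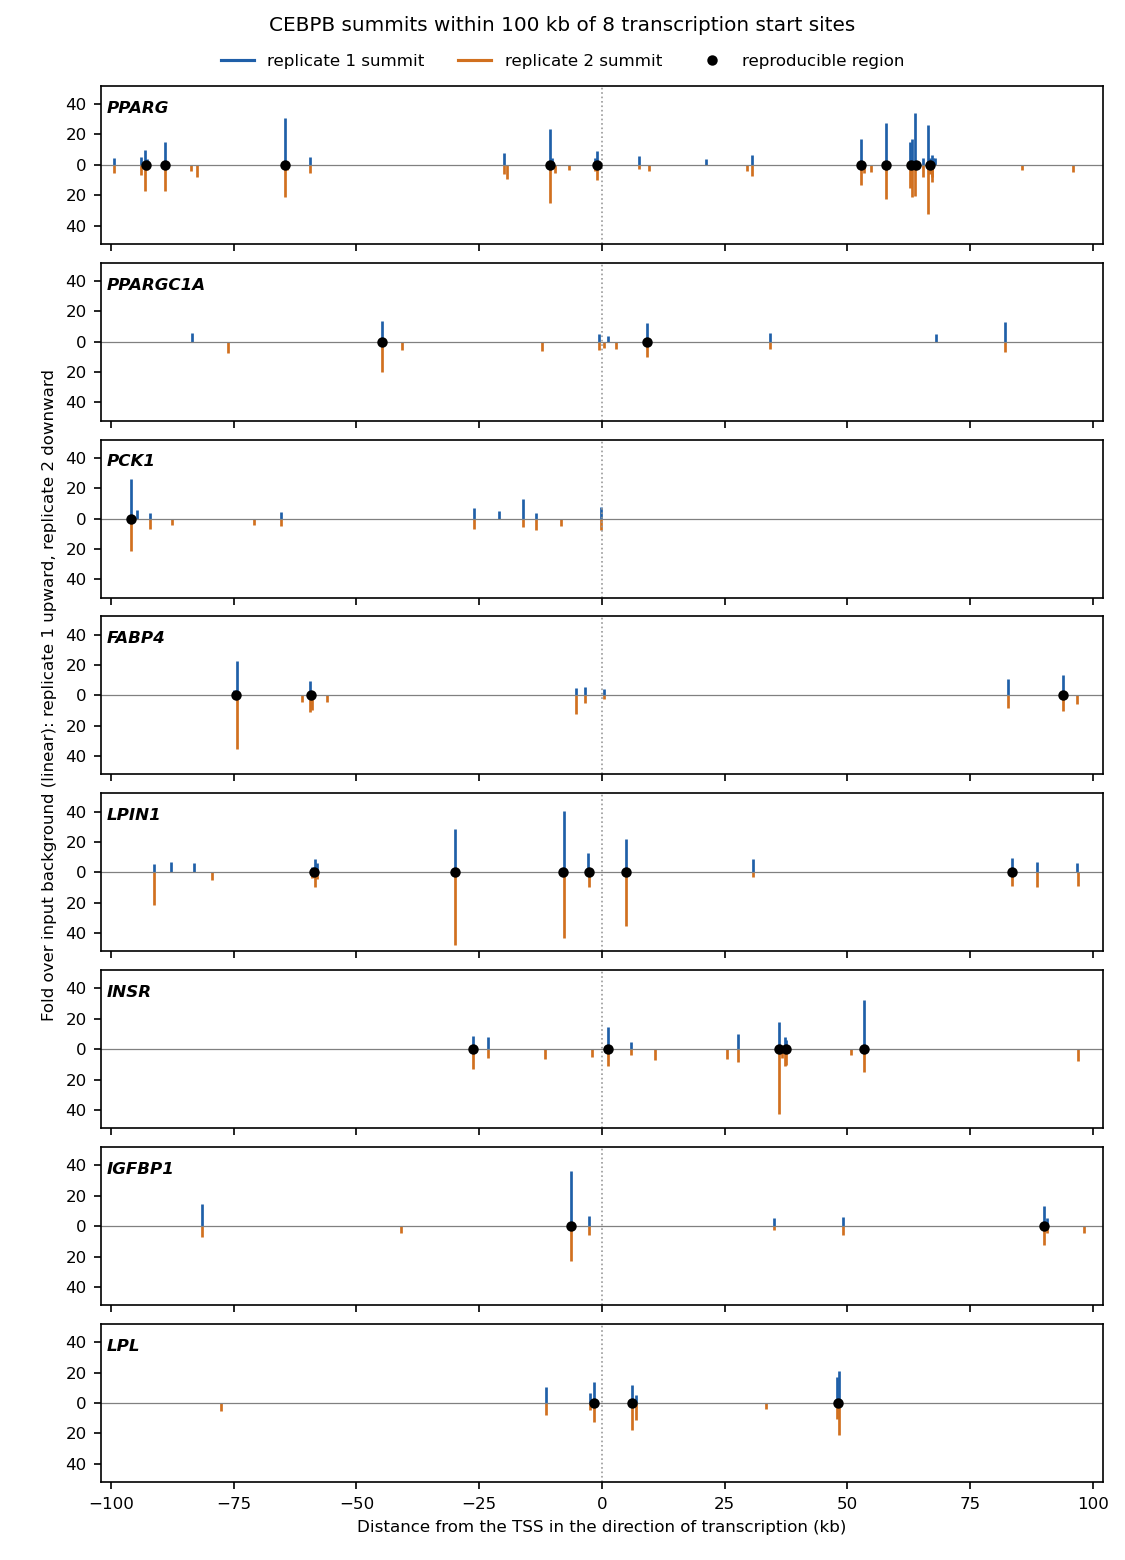
CEBPB summits at the 8 loci by distance from the TSS in the direction of transcription (kb, negative is upstream), with their fold over input background on a linear scale, replicate 1 upward in blue and replicate 2 downward in orange. Black dots mark the 32 reproducible regions, and a group of 5 lies 52.8 to 66.8 kb downstream of the PPARG TSS.

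PPARG encodes the lipid-sensing nuclear receptor that drives adipocyte differentiation, and its locus (chromosome 3, band 3p25.2, TSS at 12.329 Mb) was the richest, with 26 summits in replicate 1 and 35 in replicate 2. Of these, 23 paired within 100 bp. The most marked stretch lay inside the 100 kb after the TSS, where 5 reproducible regions stood 52.8, 57.8, 63.0, 63.9 and 66.8 kb downstream, all in 14.9 kb. The tallest, 66.8 kb downstream (chromosome 3, 12395212 to 12396488), had a fold of 26.3 in replicate 1 and 32.2 in replicate 2, with 254 and 281 fragments. It was the widest of the 32 regions at 1277 bp, held 4 summits in each replicate, and had more fragments than 99.8% of all regions. The tallest pileups of the whole lists were 299 and 312 fragments.

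The region 63.9 kb downstream of the PPARG TSS (chromosome 3, 12392606 to 12393136) had a fold of 34.0 and 20.5, and its summits fell on the same base, 12392841, in both replicates. The fragments numbered 161 and 204, so replicate 1 had the higher fold on fewer fragments, with a background of 3.41 in replicate 1 and 7.0 in replicate 2. In RefSeq the 6 starts of PPARG span 64.0 kb on GRCh38, the first 3 within 1.7 kb and the last 64.0 kb after the first. That last start is the one whose promoter is printed above. The spacing was measured within GRCh38 and no position was carried between builds, so the hg19 summit is not placed on that sequence here. Its neighbour 63.0 kb downstream (12391533 to 12392384) had folds of 17.0 and 21.0 with 127 and 160 fragments, and 2 summits in each replicate.

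The remaining PPARG regions downstream lay 52.8 kb (fold 17.0 and 13.0) and 57.8 kb (27.4 and 22.8) from the TSS. The first had 96 and 145 fragments, a split not detectably different from that of regions of like height (two-sided exact binomial test, Benjamini-Hochberg adjusted p = 0.44). Upstream, a region 10.5 kb away (12318168 to 12318916) had folds of 23.3 and 25.5 with 101 and 120 fragments, and one 64.5 kb away (12264222 to 12264861) had 31.0 and 21.5 with 166 and 160. A pair 89.0 and 92.9 kb upstream reached mean folds of 16.3 and 13.5. These distal sites lie on the side of the neighbouring genes TIMP4 and SYN2. The region nearest the TSS was the weakest of the locus: 1.0 kb upstream (12327907 to 12328174), it had folds of 9.27 and 9.95 with 38 and 50 fragments, and 5.19% of all regions had a lower mean fold. In both replicates the folds were thus lowest beside the TSS that defined the locus, and higher at each of the 5 regions more than 50 kb downstream. In replicate 1 the region 92.9 kb upstream, at 9.99, was only slightly higher. Which of the 6 RefSeq starts that TSS stands for was not determined, so the contrast holds for that position only. The input background was also high at this locus, with a median over summits of 4.0 in replicate 1 and 3.73 in replicate 2, against 2.14 and 2.20 over all summits. Its part in the number of sites was not tested.

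LPIN1 encodes lipin 1, a phosphatidate phosphatase of triglyceride synthesis that also acts as a nuclear coactivator. Its locus (chromosome 2, band 2p25.1, TSS at 11.887 Mb) held the strongest site of all 8 loci, 7.9 kb upstream (11878761 to 11879514). That region had a fold of 40.3 in replicate 1 and 43.5 in replicate 2, 41.9 ± 2.23 (SD, n = 2), with 149 and 160 fragments over backgrounds of 2.45 and 1.97. It ranked 560 of 25602 by mean fold. A second strong region, 29.9 kb upstream (11856841 to 11857262), had folds of 28.8 and 47.9 with 106 and 140 fragments, and another, 5.0 kb downstream (11891762 to 11892160), had 21.8 and 35.5 with 80 and 109. All 3 were in the upper part of both lists. At the last 2 the fold differed more between replicates than the fragments did, and the background was 2.45 in replicate 1 but 1.36 and 1.48 in replicate 2, at or near its floor.

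A weaker LPIN1 region stood 2.7 kb upstream of the TSS (11884046 to 11884559), with folds of 12.5 and 9.96 and 53 and 61 fragments. Its summits were 61 bp apart, the most of any region at the 8 loci. Regions 58.7 kb upstream and 83.6 kb downstream were near the lower end of the table, with mean folds of 9.31 and 9.25. The 3 regions from 7.9 kb upstream to 5.0 kb downstream bracketed the TSS within 13.4 kb. RefSeq lists 3 starts for LPIN1 on GRCh38, over 69.1 kb, and which of them each upstream site is near was not determined.

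At LPIN1 the replicates also disagreed. A summit 91.2 kb upstream had 17 fragments and a fold of 5.58 in replicate 1 but 63 fragments and a fold of 21.8 in replicate 2. It is not among the reproducible regions, and its background was 2.00 and 1.36. To set such differences against counting noise, fragments were compared over 63590 pairs of summits, a test added after the values had been seen. Against the share of replicate 2 among pairs of like height, 3.21% of pairs differed between the libraries (two-sided exact binomial test, Benjamini-Hochberg adjusted p of at most 0.05). At the 8 loci 2 of 78 pairs did, this one (exact binomial test, share of replicate 2 of 78.8% against 57.5%, adjusted p = 0.0096) and one at FABP4. A count of 2 in 78 is near the background share.

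FABP4 encodes the fatty acid binding protein of adipocytes, and its neighbours in RefSeq are the related genes FABP9 and FABP12. The 3 reproducible regions of the locus (chromosome 8, band 8q21.13, TSS at 82.396 Mb) all lay more than 50 kb from the TSS. The strongest, 74.5 kb upstream (82470097 to 82470982), had a fold of 23.0 in replicate 1 and 35.2 in replicate 2, with 148 and 180 fragments. The weakest by mean fold, 59.3 kb upstream (82454908 to 82455693), had folds of 9.54 and 10.7 but 36 and 92 fragments, so that the folds hardly differed while the fragments did. Its background was 2.60 in replicate 1 and 6.0 in replicate 2, higher where the fragments were more. Its part in the difference was not tested. The last, 93.9 kb downstream (82301940 to 82302270), had folds of 13.5 and 10.2.

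The fragments of the replicates were tested in the same way over the 25602 reproducible regions, of which 2.91% differed between the libraries. At the 8 loci 1 of 32 did, the FABP4 region 59.3 kb upstream, where replicate 2 held 71.9% of the fragments against 57.1% among regions of like height (two-sided exact binomial test, adjusted p = 0.032). At an unadjusted p under 0.05 there were 2 of 32, against 4202 of 25602. The test compares the 2 libraries and leaves out ordinary spread between experiments. The summed fragments of the 32 regions were 2886 in replicate 1 and 3521 in replicate 2, a ratio of 1.22, against 1.26 over all regions.

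Close to the FABP4 TSS the signal was low. A pair of summits 0.4 kb downstream had folds of 4.19 and 2.57 with 17 and 18 fragments, and a pair 3.4 kb upstream had 5.58 and 5.05 with 17 and 24. Slightly farther out, 5.2 kb upstream, the folds were 5.2 and 12.2 with 27 and 36 fragments. Each was called in both replicates, and none entered the table of reproducible regions.

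LPL encodes lipoprotein lipase, which releases fatty acids from circulating triglycerides. Its locus (chromosome 8, band 8p21.3, TSS at 19.797 Mb) had 3 reproducible regions of middling height, and the 2 replicates gave close folds at a pair of them. The region 48.2 kb downstream (19844726 to 19845621) had folds of 21.1 and 20.8 with 53 and 60 fragments, and 2 summits in each replicate. The region 1.7 kb upstream of the TSS (19795172 to 19795467) had 13.7 and 12.6 with 34 and 49, and the one 6.2 kb downstream (19803015 to 19803375) had 12.1 and 17.7 with 30 and 51. LPL had a low background, with a median over its summits of 1.38 in replicate 1 and 1.72 in replicate 2, so fewer fragments sufficed for a given fold than at PPARG.

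PPARGC1A encodes PGC-1alpha, a coactivator of mitochondrial and gluconeogenic genes. The locus (chromosome 4, band 4p15.2, TSS at 23.892 Mb) had the weakest best site of the 8, a region 44.7 kb upstream (23936546 to 23936939) with folds of 13.9 and 20.1 and 46 and 74 fragments. The other reproducible region, 9.2 kb downstream (23882649 to 23883048), had folds of 12.3 and 10.2 with 32 and 37 fragments. Near the TSS, a pair of summits 0.6 kb upstream was called in both replicates with folds of 4.97 and 5.61. It rested on 15 and 20 fragments, below the median summit of each list. A pair 82.2 kb downstream had 13.0 and 7.05 and was not in the IDR table.

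PCK1 encodes the cytosolic phosphoenolpyruvate carboxykinase, the enzyme that commits oxaloacetate to gluconeogenesis. Its promoter is a classic C/EBP and cyclic AMP target in liver, and its locus (chromosome 20, band 20q13.31, TSS at 56.136 Mb) had a single reproducible region, at the far edge of the window. That region, 95.9 kb upstream (56039870 to 56040346) on the side of CTCFL, had folds of 25.8 and 21.6 with 250 and 269 fragments over backgrounds of 8.00 and 9.00. It had more fragments than 99.6% of all regions and a higher mean fold than 78.3%.

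At the PCK1 TSS itself a peak was called in both replicates, with summits 0.1 kb upstream and 18 bp apart. It had a fold of 7.69 and 7.32, and 58 and 72 fragments over backgrounds of 6.12 and 7.0. The fragments are close to the median of all reproducible regions, 58 and 76, whereas the fold is low and the background high beside the medians of those regions, 2.17 and 2.68. The −log10 q was 28.6 and 29.5. It is not among the reproducible regions. A summit 16.0 kb upstream had 13.2 and 5.62 in fold but 56 and 76 fragments, with backgrounds of 3.00 and 10.0. All other pairs at PCK1, at 13.5, 26.0, 65.3 and 92.0 kb upstream, had mean folds of 4.90 to 6.74, and no summit was called in the 100 kb downstream of the TSS in either replicate.

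INSR encodes the insulin receptor. Its locus (chromosome 19, band 19p13.2, TSS at 7.294 Mb) had 5 reproducible regions, and its best region had the widest spread between replicates among the best regions of the 8 loci. The region 36.1 kb downstream (7257686 to 7258173) had a fold of 18.2 in replicate 1 and 42.7 in replicate 2, 30.5 ± 17.3 (SD, n = 2), on 117 and 159 fragments. The region 53.4 kb downstream (7240314 to 7240787) went the other way, with folds of 32.1 and 15.2 on 69 and 94 fragments. Replicate 2 held 57.6% and 57.7% of the fragments, against 54.7% and 56.3% among regions of like height. Neither difference was detectable (exact binomial test, adjusted p = 0.74 and 0.95). The background was 5.00 and 2.00 for the first and 1.03 and 4.0 for the other, and its part in the spread of the folds was not tested. A region 1.2 kb downstream of the TSS (7292605 to 7293002) had folds of 14.4 and 10.8 with 30 and 53 fragments. The regions 26.2 kb upstream and 37.5 kb downstream had mean folds of 10.9 and 9.59.

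IGFBP1 encodes a binding protein for insulin-like growth factors that liver secretes in fasting, and IGFBP3, of the same family, is its neighbour. Its locus (chromosome 7, band 7p12.3, TSS at 45.928 Mb) had one strong site near the gene, 6.2 kb upstream (45921500 to 45922030), with a fold of 36.3 in replicate 1 and 22.9 in replicate 2 on 146 and 142 fragments. The other region, 90.0 kb downstream (46017740 to 46018232) on the side of IGFBP3, had folds of 13.0 and 12.4 on 86 and 77 fragments. IGFBP1 was the one locus with fewer summed fragments in replicate 2 than in replicate 1, 219 against 232, while the ratio at the other loci ran from 1.08 at PCK1 to 1.51 at FABP4. At neither region was the split of fragments detectably different from that of regions of like height (exact binomial test, adjusted p = 0.37 and 0.20). A pair of summits 2.7 kb upstream had folds of 6.50 and 5.70, and one 81.5 kb upstream had 14.9 and 7.35; both stayed outside the IDR table.

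Ranked by the mean fold of their best region, LPIN1 came first with 41.9 ± 2.23, followed by INSR (30.5 ± 17.3), IGFBP1 (29.6 ± 9.47), PPARG (29.3 ± 4.23) and FABP4 (29.1 ± 8.60; SD, n = 2 throughout). PCK1 (23.7 ± 3.00), LPL (20.9 ± 0.216) and PPARGC1A (17.0 ± 4.37) came after them. INSR, IGFBP1, PPARG and FABP4 lay closer together than the SD of any of them. No locus differed from the next in this order by more than the larger SD of the pair, LPIN1 and INSR included, so neighbours in the order are not resolved. By fragments the order was different: PPARG and PCK1 had the tallest sites, at 254 and 281 and at 250 and 269. LPL (53 and 60) and PPARGC1A (46 and 74) had the lowest best sites.

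**Figure D3:**
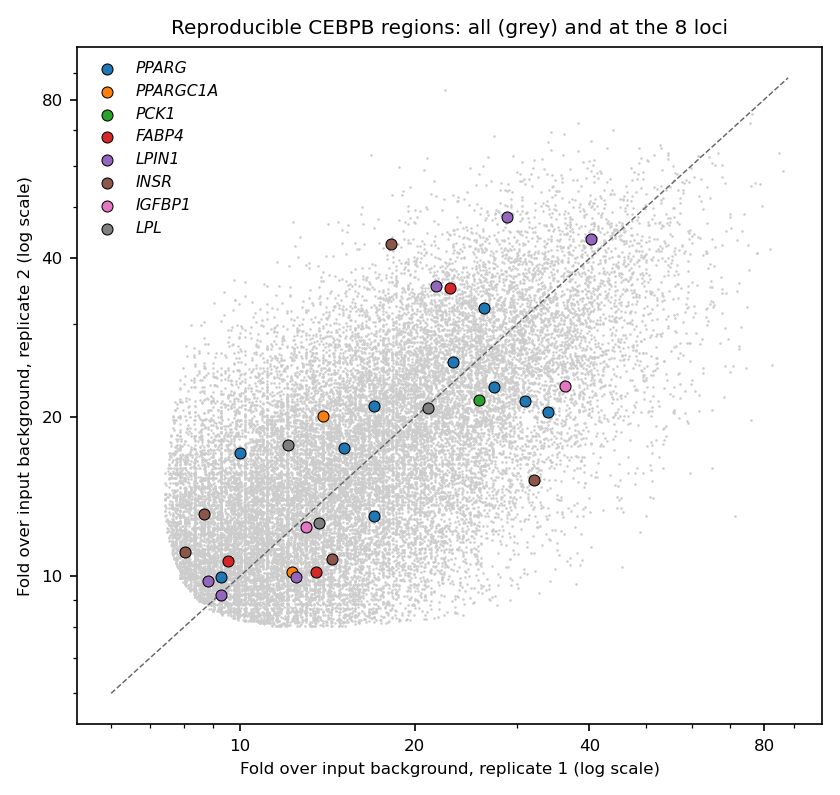
Fold over input background of every reproducible region in replicate 1 (horizontal) and replicate 2 (vertical), both on log scales, with all 25602 regions in grey and the 32 at the 8 loci coloured by gene; the dashed line marks equal values. LPIN1 has the points farthest up the line, and the INSR points at 18.2 and 42.7 and at 32.1 and 15.2 lie on opposite sides of it.

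**Figure D4:**
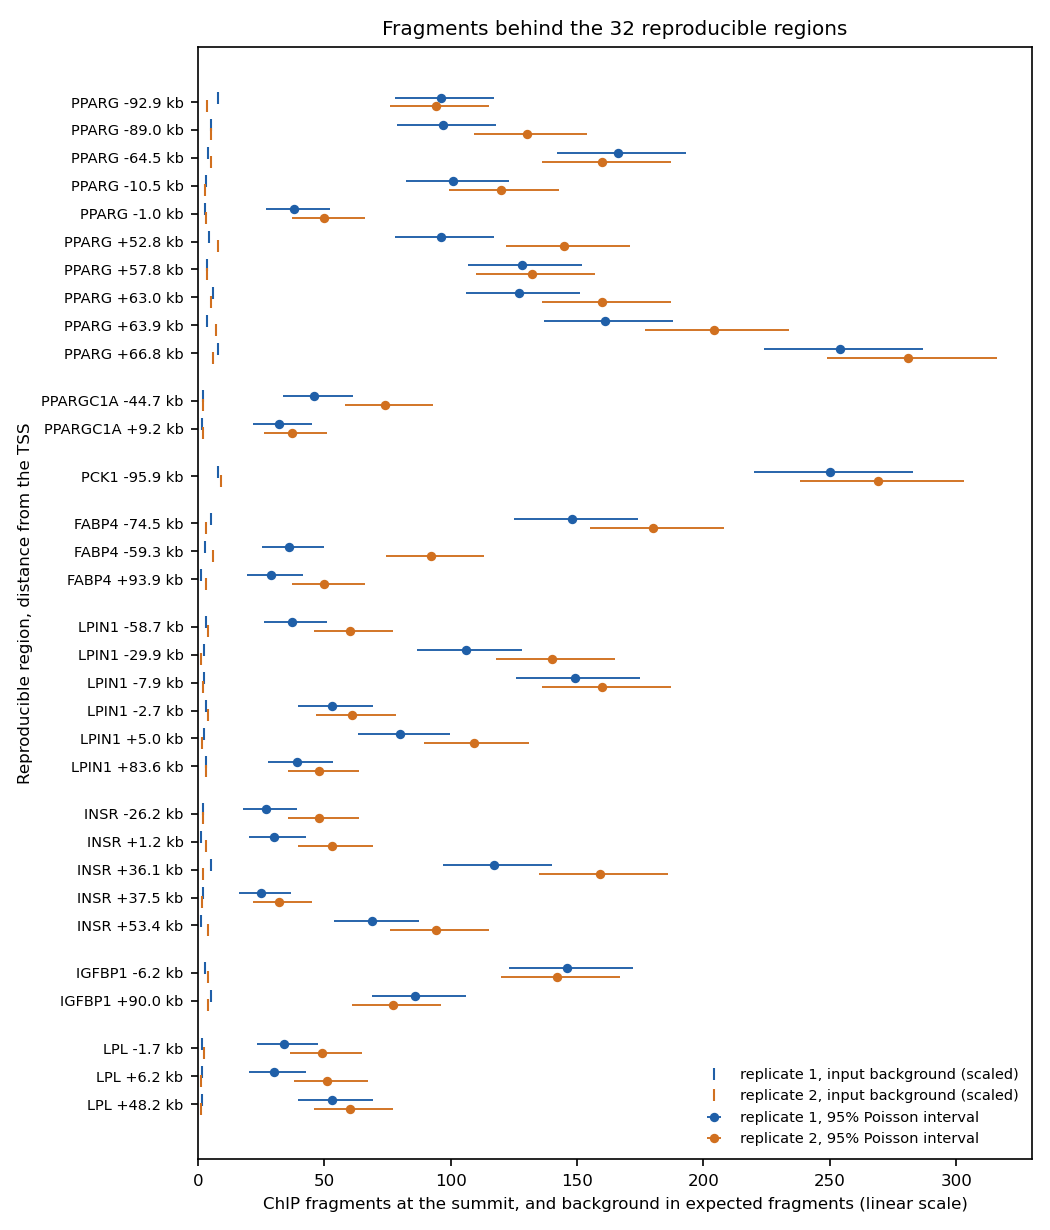
Fragments at the summit of each of the 32 reproducible regions (points, with exact 95% Poisson intervals) and the expected fragments of the input background (ticks, on the scaled pileup), on a linear scale, for replicate 1 in blue and replicate 2 in orange. The tallest are PPARG 66.8 kb downstream and PCK1 95.9 kb upstream, with 250 to 281 fragments, and the intervals of the replicates are clear of each other at the FABP4 region 59.3 kb upstream and the PPARG region 52.8 kb downstream. Fragments are not adjusted for the libraries, whose summed fragments over all regions had a ratio of 1.26. Against regions of like height, the split differed at the FABP4 region but not detectably at the PPARG one (exact binomial test, adjusted p = 0.032 and 0.44).

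Of the 32 regions, 16 had another within 12.5 kb, against 39.5% of all regions. Most of these were at PPARG, in groups of 2, 2 and 5. LPIN1 had a group of 3, and LPL and INSR had 2 regions each. No region at PCK1, FABP4, IGFBP1 or PPARGC1A had a neighbour that near. The share therefore rests largely on PPARG and is not a trait of every locus. The 5 downstream PPARG regions made the largest group, with a mean fold of 23.1 ± 5.95 (SD over regions) and 766 and 922 summed fragments. Their nearest neighbours lay 0.9 to 5.0 kb away. Regions were a median of 490.5 bp wide, against 421 bp for all regions. The paired summits of a region stood 9 bp apart at the median, against 8 bp over all regions.

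Summits that found no partner within 100 bp in the other replicate reached at most 6.51 in fold in replicate 1 and 9.21 in replicate 2. None of the 11 in replicate 1 and 5 of the 35 in replicate 2 exceeded the median fold of their list, 6.99 and 6.53. In replicate 1, 78 of 89 summits had a partner (87.6%, 95% exact binomial interval 79.0 to 93.7%), against 79.0% of all its summits. In replicate 2, 78 of 113 had one (69.0%, 59.6 to 77.4%), against 61.0%. Summits of one locus are not independent, and the intervals cover counting error only. Those without a partner had a median fold of 4.66 in replicate 1 and 4.87 in replicate 2, whereas those with one had 8.75 and 9.52. PPARG held 12 of the 35 such summits of replicate 2, among them the highest of them all, 19.3 kb upstream with a fold of 9.21 on 41 fragments. INSR held 7, and it had none in replicate 1.

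Of the 78 pairs, 37 lay outside the reproducible regions, or 47.4%, against 55.5% of all 63590 pairs. The pair at the PCK1 TSS was one of the 37. The reproducible regions closest to the edge of the window were the one at PCK1 95.9 kb away, inside, with a mean fold of 23.7, and one 100.4 kb from the PPARGC1A TSS, just outside, with folds of 25.7 and 23.0. The latter was higher than any counted at PPARGC1A, and a shift of its TSS by 0.5 kb, within its precision, would bring it in.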

How the data were processed

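The files analysed were a peak list per CEBPB ChIP sample and a table of the IDR of the pair. Per the submitters' processing notes, the build was hg19 and the tools were MACS2 2.1.2, Bowtie2 2.3.4, bedtools 2.25.0, SAMtools 1.9 and FastQC 0.11.7. Their settings, the IDR program and the treatment of duplicates are not given in those notes. The deposited lists hold, per summit, a score, a fold over input background, and both p and q on a −log10 scale. The authors' deposited IDR is a −log10 value; 2 further columns of sample values in that table were not used. Inputs entered only as the peak caller's background.

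Fragments were solved from fold and p, at a scale of 0.927 (replicate 1) and 0.800 (replicate 2) per read; counts came out whole at 100% of summits (tolerance 0.005 on −log10 p). The background had a floor of 1.00 in replicate 1 and 1.36 in replicate 2, read from its lowest values, and 11.1% and 17.0% of summits stood at about it. Identical IDR intervals were merged; a region counted by its midpoint. Each region's split of fragments was tested (two-sided exact binomial) against the median split of the 1001 regions nearest in total, adjusted over all regions. The procedure was tried on simulated data in which unchanged regions varied by counting error only. Its false calls under spread between experiments were therefore not tested. With 2 replicates, SDs are rough.

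All 8 genes are named, with every region where a locus had 5 or fewer; of the others, the 5 strongest and the nearest to the TSS were to be named. Members, lists and tests were chosen with earlier results of these data known. TSS positions came from the definition of the loci; strand came from RefSeq for 4 genes and from general knowledge for the others. An hg19 sequence or annotation was not used here, so summit sequences and the other pathway genes were not placed. Bands came from circlize 0.4.16 (hg19), figures from matplotlib 3.10.9 and tests from SciPy 1.17.1 and statsmodels 0.14.6 in Python 3.11.15.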

Additional observations from a re-analysis of the deposited data

How the results depend on the processing

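Every locus kept a reproducible region at an IDR of at most 0.01, but 6 of 8 did within 50 kb, where PCK1 and FABP4 had none. The 32 regions became 16 within 50 kb, 54 within 200 kb, 20 at an IDR of at most 0.01 and 76 as summit pairs that each replicate called with a q of at most 0.01; moving every TSS by 500 bp, tried after seeing the data, gave 33 or 32. Summits, 89 and 113, became 45 and 58 within 50 kb and 168 and 219 within 200 kb. The windows with a region, 63.5%, became 46.4% for 100 kb, 78.0% for 400 kb and 51.3% at an IDR of at most 0.01. The median fold of 16.6 became 24.7 at an IDR of at most 0.01, which leaves out the weaker regions, and 16.1 to 17.6 with either replicate left out. The single region with differing fragments became 0 under the stricter IDR of 0.01 (exact binomial test; 0 of 20 at an unadjusted p under 0.05), because the FABP4 region is not in that set, and 2 over all summit pairs. The shares of paired summits stayed within their intervals in all 4 settings tried for each replicate. No paired analysis was possible because only the CEBPB samples have lists of their own, so there were no 2 groups to pair.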
